A study of Drosophila melanogaster with 36 samples.

Results

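DDT and phenobarbital were compared in adult males of Drosophila melanogaster through their ratios against control males on a two-colour array of detoxification genes. The comparison used arrays 1 to 3 of each compound, 6 of the 36 arrays of the series, and all 159 genes that the probe table named with 1 symbol. Array 4 of both compounds was left out because the columns held identical values. The flies were of the strain labelled y cn bw sp, males aged 4 days after emergence, and were exposed for 4 h in 30 ml vials whose walls were coated from 150 µl of acetone that was left to evaporate. The DDT vials received 10 µg of DDT, the phenobarbital vials 10 µl of a 1 M phenobarbital solution, and the control vials of both groups acetone alone. The label of the exposed channel of DDT array 1 gives an age 1 day above that on the other adult labels. The doses are in different units and cannot be matched, so each difference below is one between these 2 exposures.

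For each compound, 8 exposed samples of 50 males and 8 control samples of 50 males were each pooled, which gave 1 exposed and 1 control RNA pool of 400 males. The arrays of a compound are technical repeats of that pool pair. The labels do not say whether both compounds shared a control pool. Whole males were extracted, so fewer cells of a type and less RNA per cell cannot be told apart. Each value is the log2 of exposed over control, turned by dye, centred on the median of the named genes of each array, and averaged over both dye orientations. The ratio was taken as Cy5 over Cy3, which the labels do not state. If it were the reverse, every higher and lower below would swap.

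Cytochrome P450s insert oxygen into foreign and endogenous compounds. Glutathione S-transferases (GSTs) join glutathione to reactive compounds or use it to split them. DDT acts on the voltage-gated sodium channel of nerve cells, and barbiturates such as phenobarbital are standard inducers of P450 and GST genes in insects. In Drosophila, raised Cyp6g1 is tied to DDT resistance, and GstD1 protein can remove chlorine from DDT. Most P450s of the CYP3 clan, to which the Cyp6 and Cyp9 families belong, and many of the CYP4 clan are studied as detoxification enzymes, while the mitochondrial and CYP2 clans also hold the enzymes that make ecdysteroids.

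The 6 arrays gave 1584 to 1686 spots with a ratio and 158 to 159 genes with a value each. No intensities were used, so the signal over background behind a ratio is unknown. The arrays of DDT depended strongly on dye: across genes, turned DDT arrays 1 and 3, which had the exposed pool in Cy5, correlated at r = 0.88, but both ran against array 2 with the dyes swapped, at -0.48 and -0.55. The 3 phenobarbital arrays correlated at 0.54 to 0.78. The deviation of either dye orientation from their mean had an SD over genes of 0.77 with DDT and 0.47 with phenobarbital, and across genes it correlated with the dye effect of the other 8 pool pairs at r = 0.73 and 0.47. These correlations describe the arrays and are across genes that share array and dye. Averaging over orientations removes a constant dye effect, but each compound then rests on array 2 alone for one of its orientations.

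**Figure D1:**
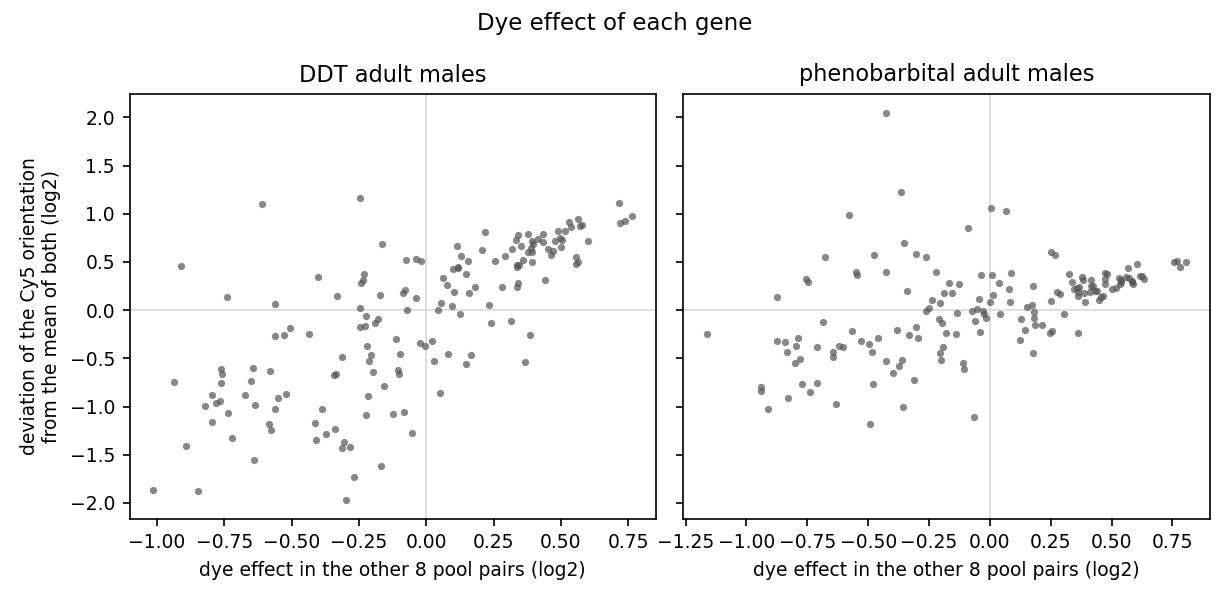
Dye effect per gene in adult males. Each point is 1 gene; the horizontal axis is its dye effect (log2) averaged over the other 8 pool pairs and the vertical axis the deviation of the Cy5 orientation from the mean of both orientations (log2) in DDT males (left) or phenobarbital males (right). The points spread further with DDT (SD 0.77) than with phenobarbital (SD 0.47), and the correlation across genes was 0.73 with DDT and 0.47 with phenobarbital.

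The test of each difference took 1 value per pool pair. Its spread came from the 5 larval insecticide pool pairs of the series, and each adult pool pair was assumed to vary like them. Each larval value averaged more than 1 array in both dye orientations, while each adult value had array 2 alone in one. The p-values of this fit may therefore be too small. A gene was called at an adjusted p under 0.05 and a difference of at least 1.5-fold. A second fit took its error from the arrays instead. Its median standard error of the DDT minus phenobarbital difference was 0.36 against 0.27 in the pool-pair fit, so genes called in both fits are described first.

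A set of P450 genes, mostly of the Cyp6 and Cyp4 families, had far higher ratios after phenobarbital than after DDT. Of 158 genes tested, 47 differed between DDT and phenobarbital in the pool-pair fit (29.7% of all genes): 30 were lower with DDT (19% of all) and 17 higher (10.8%). Both fits called 13 genes (8.23%), 12 of them lower with DDT (7.59%) and 1 higher (0.633%), which were also all that the array fit called (8.18% of the 159 genes it tested, 7.55% lower and 0.629% higher). The 12 lower of these were the P450s Cyp6a8, Cyp6a21, Cyp6w1, Cyp6d5, Cyp6t1, Cyp4ae1, Cyp4d14, Cyp4d8, Cyp4e2 and Cyp12c1 with the GSTs GstD2 and GstE3, and the 1 higher was Ace. P450s were thus 10 of the 12, on an array where they were 85 of the 159 named genes. With the array number as a block, the array fit called 11 genes of 157, all lower with DDT (7.01%; 0% higher), and 9 of the 12 above were among them. The 3 arrays of one compound lay wholly apart from the 3 of the other for 30 of 157 genes with all 6 values (19.1%), 24 of them lower with DDT (15.3%) and 6 higher (3.82%).

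The split into higher and lower depends on the centring. The median difference over all genes was -0.01 as centred here. It moved to -0.67 as deposited, -0.43 with arrays centred on all spots and -0.30 with arrays centred on 4 reference genes. The counts were then 2 higher and 33 lower, 8 and 48, and 7 and 33. Arrays scaled to the same spread gave 5 and 20. Of the 30 lower genes, 20 were called lower under all 4 of these settings, against 1 of the 17 higher genes.

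**Figure D2:**
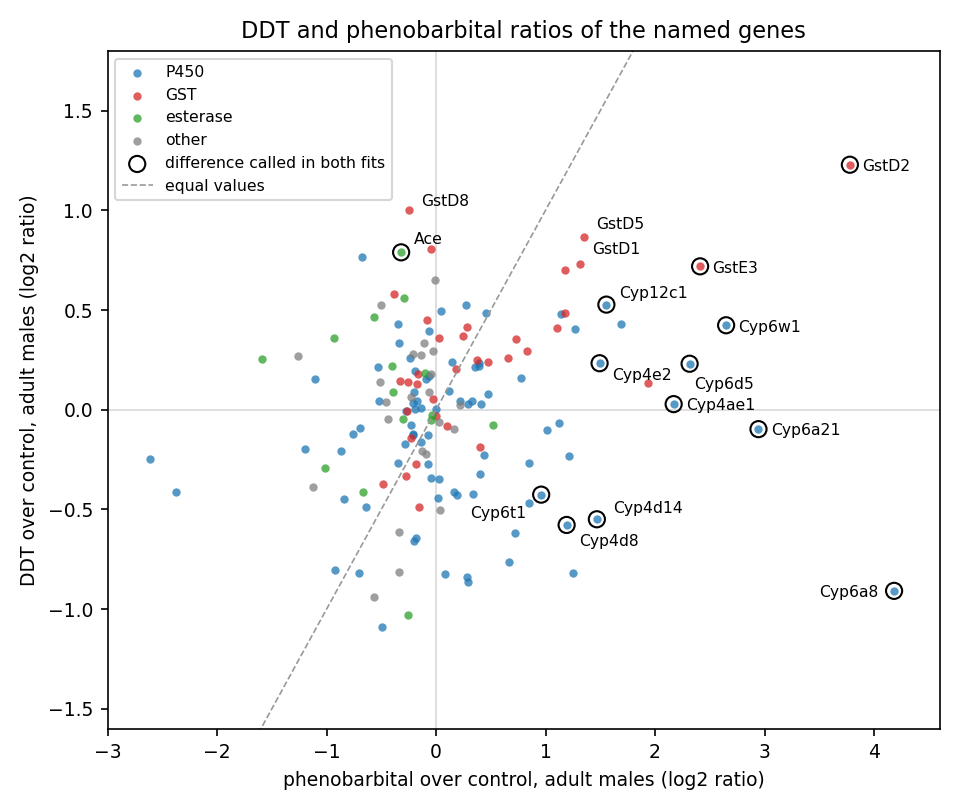
DDT ratio (vertical axis) against phenobarbital ratio (horizontal axis) of the named genes in adult males, both as log2 of exposed over control. Colours mark P450s, GSTs, esterases and other genes, rings mark the 13 genes whose difference was called in both fits, and the dashed line marks equal values. The ratios spread from -2.61 to 4.18 with phenobarbital and from -1.09 to 1.23 with DDT, and 12 of the ringed genes lie to the right of the line.

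Of the 30 genes lower with DDT than with phenobarbital, 24 were called higher with phenobarbital against its control. The phenobarbital ratio enters the difference by which the 30 were picked, so this count is not independent evidence. Against control, 50 of 158 genes were called with phenobarbital (31.6%), 32 higher (20.3%) and 18 lower (11.4%). With DDT 21 of 159 were called (13.2%), 7 higher (4.4%) and 14 lower (8.81%). The array fit called 29 of 159 with phenobarbital (18.2%), 27 higher (17%) and 2 lower (1.26%), and 10 with DDT (6.29%), 7 higher (4.4%) and 3 lower (1.89%). The SD over genes of the ratio was 0.92 with phenobarbital and 0.43 with DDT, while the 5 larval insecticides that gave the error lay between 0.17 and 0.29. No DDT call against control held under every alternative setting.

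Cyp6a8, a CYP3 clan P450 long used to study induction in flies, differed most. Its log2 ratios were 3.53, 4.76 and 3.68 on phenobarbital arrays 1 to 3 and -2.80, 0.46 and -1.74 on the DDT arrays. The compounds did not overlap, and DDT array 2 was the only DDT array above 0. The difference was -5.09 ± 0.31 (SE), 34.1-fold, with an adjusted p of 2.79e-07. Against control, Cyp6a8 rose with phenobarbital by 4.18 and was called lower with DDT at -0.91 (adjusted p = 0.023). The DDT call held in 16 of 21 alternatives, and was lost without DDT array 1 among others.

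Cyp6a21, of the same subfamily, read 3.06, 2.77 and 3.18 with phenobarbital and 0.48, -0.62 and 0.37 with DDT. All phenobarbital arrays were high, and the DDT arrays lay on both sides of 0. The difference was -3.04 ± 0.27 (8.24-fold, adjusted p = 9.49e-06).

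For Cyp6w1, a P450 listed among those tied to DDT resistance in earlier work, phenobarbital gave 2.65, 2.57 and 2.81 and DDT 0.75, 0.09 and 0.75. Every array was above 0, the phenobarbital arrays well above the DDT arrays. The 2 compounds differed by -2.23 ± 0.24 (4.68-fold, adjusted p = 5.09e-05), and the DDT ratio of 0.42 did not pass the test (adjusted p = 0.10).

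Cyp6d5 read 2.57, 1.97 and 2.75 with phenobarbital and 0.81, -0.44 and 0.99 with DDT, again without overlap, and differed by -2.08 ± 0.25. Cyp6t1, a smaller change in the same family, read 0.91, 1.05 and 0.83 against -0.37, -0.70 and 0.07, a difference of -1.39 ± 0.25 that lost its call with the block (adjusted p = 0.095). Both genes rose with phenobarbital, and neither passed the test with DDT (adjusted p = 0.432 and 0.115).

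The CYP4 clan, whose best known members hydroxylate fatty acids, gave 4 genes called in both fits. Cyp4ae1 read 1.99, 2.40 and 1.89 with phenobarbital and 0.08, -0.18 and 0.40 with DDT, a difference of -2.14 ± 0.24. Cyp4d14 read 1.35, 1.51 and 1.52 against -0.24, -1.06 and 0.15, a difference of -2.02 ± 0.23. In both genes the phenobarbital arrays stood together and the DDT arrays were lower without overlap.

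Cyp4e2 followed with 1.66, 1.20 and 1.92 against 0.65, -0.26 and 0.81, a difference of -1.26 ± 0.26 without overlap, whose call was lost with the block (adjusted p = 0.095). Cyp4d8 is the exception to the separation: phenobarbital gave 0.48, 2.03 and 0.23 and DDT -1.66, 0.84 and -2.32, so that DDT array 2 lay above phenobarbital arrays 1 and 3. Array 2 was the high array with both compounds, and the difference of -1.77 ± 0.31 was called in both fits and with the array number as a block.

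Cyp12c1, of the mitochondrial clan, read 1.30, 1.79 and 1.34 with phenobarbital and 0.39, 0.66 and 0.40 with DDT. All 6 arrays were above 0 and the compounds did not overlap. The difference was -1.03 ± 0.24 (2.04-fold, adjusted p = 0.0068). It lost its call with the block (adjusted p = 0.174), and DDT alone did not pass the test (0.53, adjusted p = 0.057).

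**Figure D3:**
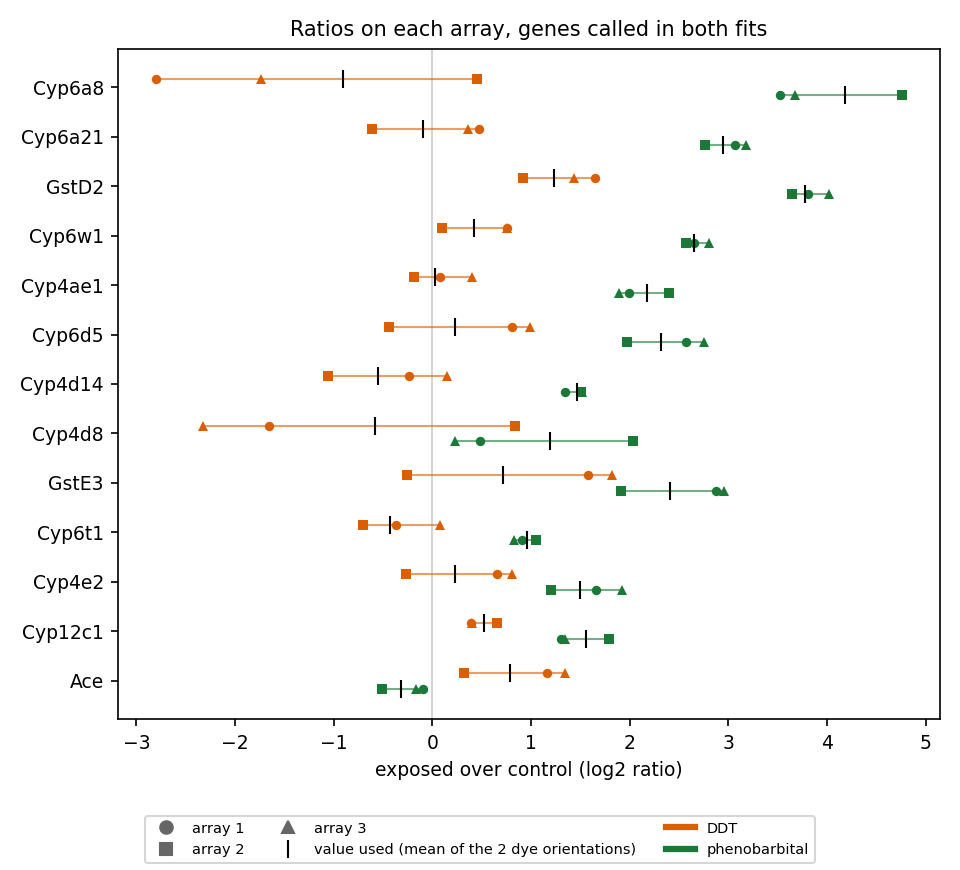
Log2 ratio of exposed over control on each array (horizontal axis) for the 13 genes whose DDT minus phenobarbital difference was called in both fits. Symbols are arrays 1 to 3, bars across a row the range over the 3 arrays, and black ticks the value used. DDT (orange) and phenobarbital (green) do not overlap except in Cyp4d8, and the DDT rows are wider in most genes.

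By family, the Cyp6 genes had the lowest median difference of the P450 groups. Of 25 Cyp6 genes, 15 were lower with DDT, where 19% of all genes were. The pool-pair fit called none higher (10.8% of all genes). None had an unadjusted p under 0.05 in that direction, where 23 of 158 genes did. The array fit and the block also called none, but they called only 0.629% and 0% of all genes higher. The median difference of the Cyp6 genes was -1.11 against -0.01 over all genes. Under all alternatives the number lower ran from 5 to 17 and the number higher stayed at 0. Against control, 13 of the 25 rose with phenobarbital (20.3% of all genes) and 6 were called lower with DDT (8.81% of all genes).

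The 6 Cyp6 genes called lower with DDT were Cyp6a8, Cyp6a14, Cyp6a18 and the sequences named as pseudogenes Cyp6a15Psi, Cyp6a16Psi and Cyp6t2Psi. The array fit called only 1 of the 6 lower, Cyp6a8. Cyp6a18 read -0.29, -1.36 and -0.35 with DDT and 0.37, 0.32 and 0.11 with phenobarbital, without overlap. Its difference was -1.12 ± 0.25, with a DDT ratio of -0.84 that was called and a phenobarbital ratio of 0.28 that was not. Without DDT array 2 the difference was -0.53 and was not called. Cyp6a8, Cyp6a15Psi and Cyp6t2Psi were the 3 genes called in opposite directions with the compounds. In the array fit Cyp6a15Psi and Cyp6t2Psi lost their calls with both compounds. For Cyp6t2Psi the DDT arrays read -1.37, -0.09 and -1.73 and the phenobarbital arrays 0.50, 2.22 and 0.06. Array 2 was highest with both compounds in Cyp6a8 and in both of these pseudogenes. Close copies within the Cyp6a cluster could share signal on spotted probes, which was not tested.

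The other P450 groups were mixed. The CYP4 clan had 6 of 32 genes lower and 3 higher with DDT, near the 19% and 10.8% of all genes, with a median difference of 0.03. The 13 CYP3 clan genes outside the Cyp6 family had 2 lower (Cyp9b2 and Cyp9h1) and 2 higher (Cyp28d2 and Cyp310a1). Cyp9b2 and Cyp9h1 lost their calls without DDT array 2, and Cyp28d2 and Cyp310a1 without phenobarbital array 2. In the mitochondrial clan 2 of 9 were lower (Cyp12b2 and Cyp12c1), and in the CYP2 clan 1 of 6 was higher (phtm). Over all 85 P450s, 25 were lower and 6 higher with DDT, against the same 19% and 10.8%, and none of the 6 higher was called by the array fit.

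No P450 was called higher with DDT against its control by limma in either fit. In the pool-pair fit 8 of 85 had an unadjusted p under 0.05 in that direction, where 24 of all 159 genes did. Each fit called 4.4% of all genes higher with DDT. Phenobarbital raised 22 P450s, where 20.3% of all genes rose. Lower calls numbered 10 with DDT and 12 with phenobarbital, where 8.81% and 11.4% of all genes were called lower. The array fit called 2 of each, where it called 1.89% and 1.26% of all genes. Of the P450s called lower in the pool-pair fit, 2 were shared by both compounds, Cyp313a3 and Cyp4d21. The array fit called neither gene with either compound. Cyp4d21, also known as sxe1 and enriched in the male fat body, read 0.04, -1.98 and 0.64 with DDT and -0.44, -0.99 and -0.39 with phenobarbital. Its DDT call rests on array 2 alone, and Cyp313a3 had DDT arrays from -2.17 to -0.16 and phenobarbital arrays from -1.51 to -0.21.

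**Figure D4:**
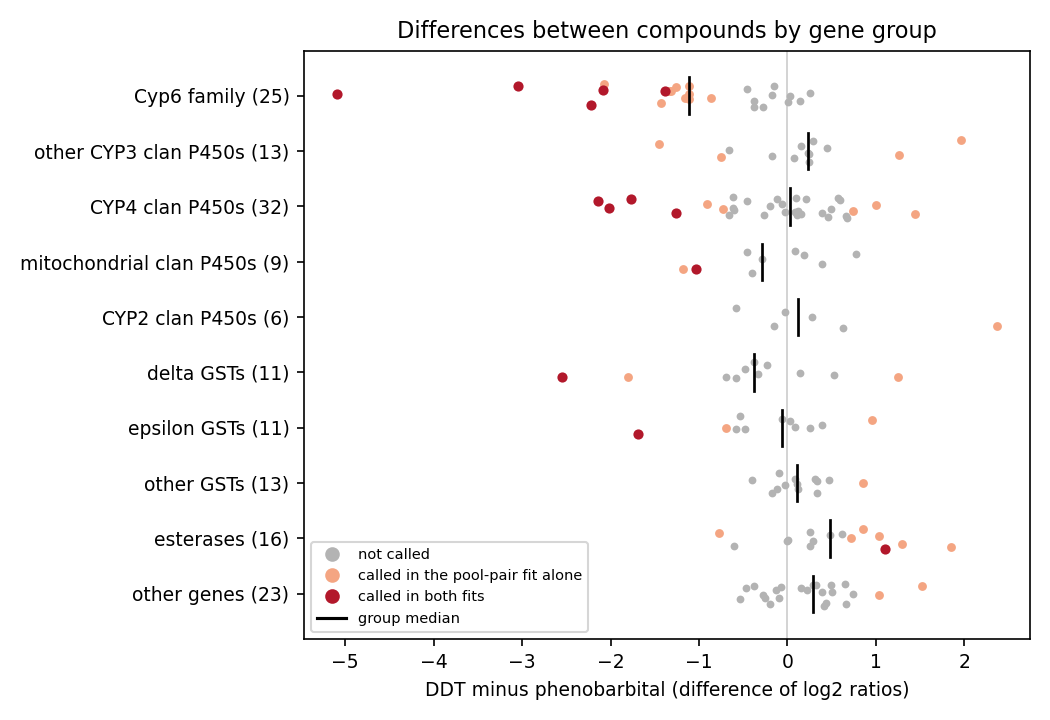
DDT minus phenobarbital difference of log2 ratios (horizontal axis) for each named gene, by gene group with the number of genes in brackets. Grey points were not called, light points were called in the pool-pair fit alone, dark points in both fits, and black bars are group medians. The Cyp6 family has its median at -1.11 and no called gene above 0, while the esterases have theirs at 0.49.

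The genes called higher with both compounds were GSTs. In all, 5 genes were called the same way with both compounds in the pool-pair fit (3.16% of 158), 2 lower (1.27%) and 3 higher (1.9%). The array fit gave 4 higher, the same 3 among them, and 0 lower. The 3 called higher in the pool-pair fit were the delta GSTs GstD1, GstD2 and GstD5. They lie in one run of adjacent genes, GstD10, GstD9 and GstD1 to GstD8. Of all 35 GSTs, 5 were called higher with DDT (GstD1, GstD2, GstD5, GstD8 and GstT4) and 10 with phenobarbital, where 4.4% and 20.3% of all genes were. In the pool-pair fit none was called lower with either, where 8.81% and 11.4% of all genes were. At an unadjusted p under 0.05, 1 was lower with DDT and 0 with phenobarbital, where 27 and 25 of all genes were. The array fit called none lower, where it called 1.89% and 1.26% of all genes lower. Across the 35 genes, 3 were higher and 4 lower with DDT than with phenobarbital, neither share above that over all genes (10.8% and 19%), and the median difference was -0.06.

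GstD2 rose with both compounds, but not to the same extent. Its ratios were 3.81, 3.65 and 4.02 with phenobarbital and 1.65, 0.91 and 1.43 with DDT, each array above 0 and the compounds far apart. The DDT ratio of 1.23 (adjusted p = 0.012) was lower than the phenobarbital ratio of 3.78 by 5.86-fold (difference -2.55 ± 0.33, adjusted p = 1.41e-04). The difference was called under every alternative setting, while the DDT call was lost as deposited and with scaled arrays.

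GstD1, the delta GST with DDT dehydrochlorinase activity, read 1.42, 0.01 and 1.48 with DDT and 1.63, 0.99 and 1.65 with phenobarbital. The DDT ratio was 0.73 (adjusted p = 0.044) and the phenobarbital ratio 1.31. DDT array 2 stood near 0, and the gene's dye effect in the other pool pairs was 0.60. The difference of -0.58 did not pass the test (95% interval -1.24 to 0.08, adjusted p = 0.19), an interval that does not show equal responses.

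GstD5 had the same shape, with 1.52, 0.16 and 1.62 with DDT and 1.61, 1.08 and 1.63 with phenobarbital. On arrays 1 and 3 the compounds nearly met, and on array 2 DDT was lower. The ratios of 0.87 and 1.35 differed by -0.48 (95% interval -1.08 to 0.11, adjusted p = 0.22). With arrays centred on all spots the differences of GstD1 and GstD5 were called, at -0.995 and -0.895. The DDT calls of both were lost as deposited, on reference genes, with scaled arrays and without the spots whose ratio was that of 2 small whole numbers, and that of GstD1 in 5 further settings.

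GstD8 and GstT4 were called higher with DDT and not with phenobarbital, and for both the difference itself passed the pool-pair test. GstD8, the last delta GST of the run, read 1.20, 1.37 and 0.06 with DDT and 0.22, -0.37 and -0.49 with phenobarbital, so DDT array 3 overlapped phenobarbital array 1. The difference was 1.25 ± 0.25 (2.38-fold, adjusted p = 0.0032). GstT4, a theta GST, read 1.21, 0.34 and 1.33 against 0.22, -0.29 and 0.15 without overlap, a difference of 0.85 ± 0.23 (adjusted p = 0.015). The array fit called neither (adjusted p = 0.079 and 0.081). The difference of GstT4 lost its call in 8 of 23 alternatives, among them all 4 other centrings and scalings, and was as low as 0.20. That of GstD8 lost its call in 5 of 22: both array fits, as deposited, with scaled arrays and with array 4 kept.

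None of the remaining delta GSTs was called with DDT against control. GstD7 was lower with DDT than with phenobarbital (-1.80 ± 0.42, adjusted p = 0.0072), but its arrays overlapped: 1.14, 3.05 and 0.52 with phenobarbital and -1.40, 1.41 and -0.88 with DDT. Without phenobarbital array 2 its difference was -0.76 and was not called, and without DDT array 2 it was -3.02. GstD4 was called with phenobarbital (1.10) and its arrays did not overlap, yet the difference of -0.69 missed the threshold (adjusted p = 0.069). The differences of GstD3, GstD6, GstD9, GstD10 and GstD11 ran from -0.38 to 0.53. The pool-pair fit called none of these genes with either compound, and the array fit called GstD3 higher with phenobarbital (0.63, adjusted p = 0.027).

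Among 11 epsilon GSTs, phenobarbital raised 4 (GstE1, GstE3, GstE5 and GstE8), where 20.3% of all genes rose. The pool-pair fit called none with DDT, where it called 4.4% of all genes higher, so a count of 0 is near that share. Of the 11, 4 were higher with DDT at an unadjusted p under 0.05, where 24 of all 159 genes were. The array fit called GstE1 higher with DDT, where it called 4.4% of all genes higher. GstE3 read 2.88, 1.91 and 2.95 with phenobarbital and 1.58, -0.26 and 1.82 with DDT. The lowest phenobarbital array was still above the highest DDT array, and the difference was -1.69 ± 0.35 (3.23-fold, adjusted p = 0.0034). DDT arrays 1 and 3 were high and array 2 was not, and the dye effect of GstE3 in the other pool pairs was 0.76.

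GstE8 was lower with DDT by the pool-pair fit alone (-0.69, adjusted p = 0.043), and lost its call without DDT array 1, DDT array 2 or phenobarbital array 2 (-0.62, -0.45 and -0.40). The differences of GstE1 and GstE5 did not pass the test, at -0.48 (95% interval -1.38 to 0.42) and -0.53 (-1.22 to 0.16). GstE10 was higher with DDT (0.96 ± 0.32, adjusted p = 0.042) on overlapping arrays of -0.53 to 1.04 against -0.92 to 0.09. It lost its call without DDT array 1, DDT array 2 or phenobarbital array 3 (0.64, 0.43 and 0.71). The differences of GstE4, GstE9, GstE11, GstE12, GstE13 and GstE14 ran from -0.58 to 0.39, and none of these genes was called.

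**Figure D5:**
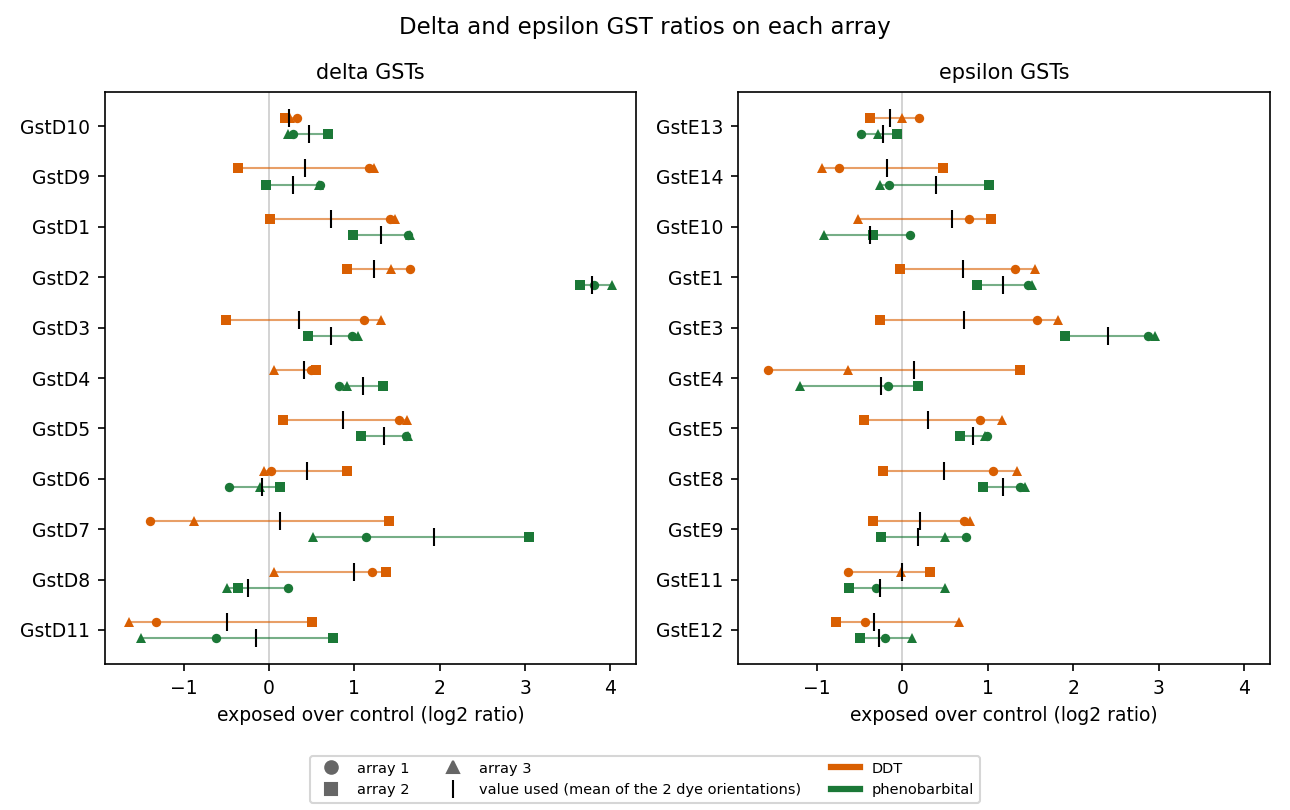
Log2 ratio of exposed over control on each array (horizontal axis) for 11 delta GSTs (left) and 11 epsilon GSTs (right), in chromosomal order within the main run of each. Symbols are arrays 1 to 3, and black ticks the value used. GstD2 and GstE3 are the genes in which the compounds separate in both fits, and in GstD1 and GstD5 they overlap.

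The lists of earlier work overlap each other and were chosen with results of these data known, so their direction is not independent evidence. Of 6 genes tied to DDT resistance, DDT was called higher for GstD1 and lower for Cyp6a8, while phenobarbital raised 5, all but Cyp6g2. The differences of Cyp6a8, Cyp6w1, Cyp6a2 and Cyp6g1 were called lower with DDT. Cyp6g1 read 0.29, -0.70 and 0.72 with DDT and 1.19, 0.77 and 1.34 with phenobarbital, without overlap (-1.11 ± 0.27, adjusted p = 0.0083). Cyp6a2, an inducible P450 whose variants can metabolise DDT, read -0.09, 0.95 and -0.09 against 1.49, 0.84 and 3.59, and DDT array 2 overlapped (-1.26 ± 0.33, adjusted p = 0.013). Without phenobarbital array 3 its difference was -0.73 and was not called, and without phenobarbital array 2 it was -2.20. Cyp6g2 was near 0 with both, at 0.01 and -0.14.

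All 6 genes listed as inducible by phenobarbital (Cyp6a2, Cyp6a8, Cyp6a9, Cyp6g1, GstD1 and GstD2) were called higher with it, against 20.3% of all genes. With DDT, 2 were called higher and 1 lower. The difference was called lower with DDT for 5 of the 6, GstD1 being the exception, where 19% of all genes were. The array fit called 2 of the 6. The phenobarbital ratio for which these genes are listed enters the difference, so its direction is not independent evidence. Phenobarbital-fed larvae of the series gave ratios of 4.37 for Cyp6a21, 3.82 for Cyp6w1, 4.66 for GstD2 and 1.94 for Cyp6a8, set beside the adult values above without a test.

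In the other direction, Ace, the gene of acetylcholinesterase, was the only gene called higher with DDT in both fits. It read 1.17, 0.32 and 1.34 with DDT and -0.09, -0.51 and -0.17 with phenobarbital, all DDT arrays above 0 and all phenobarbital arrays below. The difference was 1.11 ± 0.27 (2.16-fold, adjusted p = 0.0077), and the DDT ratio of 0.79 was called as well (adjusted p = 0.023). The call on the difference was lost under all 4 other centrings and scalings, with array 4 kept and with the block, and the difference was 0.46 as deposited and 0.82 on reference genes. Of the 4 reference genes, the 3 ribosomal protein genes RpL10Aa, RpS20 and RpS21 had differences of 0.41 to 0.49 and Gapdh1 one of -0.07. None was called.

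The esterases, enzymes that split esters and here listed with the related neuroligins, had more genes higher with DDT than lower. Of 15 tested, 6 were higher (Ace, Est-P, Est-Q, clt, alpha-Est8 and Nlg4) and 1 lower (alpha-Est2), where 10.8% of all genes were higher and 19% lower. Their median difference was 0.49 against -0.01 over all genes, and that of the 4 reference genes was 0.43. For the esterases it was 0.20 with arrays centred on reference genes, 0.07 on all spots and -0.17 as deposited. The medians over all genes were then -0.30, -0.43 and -0.67. Est-Q read 0.58, 0.36 and 0.13 with DDT and -0.86, -1.29 and -0.27 with phenobarbital, without overlap (1.29 ± 0.29, adjusted p = 0.0065). Apart from Ace, the array fit called none of the 6, and Est-P, clt, alpha-Est8, Nlg4 and alpha-Est2 each lost its call without DDT array 2. Under the alternatives the number higher ranged from 0 to 6.

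Of the 17 genes higher with DDT than with phenobarbital, 9 were called lower with phenobarbital, where 11.4% of all genes were. The phenobarbital ratio enters the difference, so this count is not independent evidence. The arrays separated in 3 of the 17 (Ace, GstT4 and Est-Q), where 3.82% of all genes separated in that direction. The largest difference was that of phtm, the P450 of ecdysteroid synthesis known as phantom, with -1.28, 1.72 and -3.14 with DDT and -2.22, -3.60 and -1.04 with phenobarbital. DDT array 2 stood above 0 and every other array below, and the compounds overlapped, although the difference of 2.37 ± 0.31 passed the pool-pair test. Without DDT array 2 it was 0.70 and without phenobarbital array 2 0.80, and the call was lost in both cases and with the block (adjusted p = 0.538). Cyp28d2 followed with 1.97 ± 0.41, in which phenobarbital array 2 read -4.42 and no other array was below -0.79. Without that array its difference turned to -0.51 and was not called.

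In these genes many spot ratios were those of 2 whole numbers from 1 to 8, to 3 decimals. Such ratios made up 18.6% of the values of the 17 higher genes, 5.82% of those of the 30 lower genes, 1.94% of those of the 13 genes called in both fits and 9.83% over all named spots. They reached 50% for phtm, 46.7% for Est-P and 30% for Cyp28d2, and were 0% for Ace, GstD8 and GstT4. The part of these spots in the results was tested only by leaving them out.

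Markers of male tissues on the array were few. Est-P, listed here as a male reproductive tract marker, read -1.64, 1.99 and -1.31 with DDT and -1.03, -2.16 and -1.01 with phenobarbital, and its difference of 1.85 ± 0.41 was called. The difference was 0.38 without DDT array 2 and 0.80 without phenobarbital array 2, and neither passed the test. Cyp4g1, the hydrocarbon-forming P450 of oenocytes, had ratios of 0.40 and -0.06 and was not called. Cyp4d21, the male fat body marker, had ratios of -0.82 with DDT and -0.70 with phenobarbital. It was called lower with both in the pool-pair fit alone. The 3 markers had median ratios of 0.26 with DDT and -0.70 with phenobarbital. These medians are values of different genes, Est-P with DDT and Cyp4d21 with phenobarbital. Ratios hold no levels, so the labelled sex and tissue could not be checked from them, and the part of these tissues in the P450 and esterase results was not tested.

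Hsp22, a mitochondrial small heat shock protein, was called higher with DDT (0.65, adjusted p = 0.038). It read 1.10, 0.20 and 1.11 with DDT and -0.04, -0.05 and 0.09 with phenobarbital, without overlap, but the difference of 0.66 missed the threshold (95% interval 0.10 to 1.22, adjusted p = 0.073). Hsp26 and Hsp27 were not called with either compound.

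Genes called with at least 1 compound and close to equal in both were also named by rule. The 5 with differences nearest 0 were Cyp4d21, Cyp313a3, Cyp313a1, Jhedup and gas. Their differences ran from -0.28 to 0.25 with intervals as wide as -0.88 to 0.64 in Cyp4d21. The interval of this gene still includes responses that differ by 1.5-fold. With single arrays or insecticide pool pairs left out, the difference of Cyp4d21 ran from -0.57 to 1.29 and that of Cyp313a1 from -0.76 to 1.85. Of the 32 genes called higher with phenobarbital, 8 had a difference from DDT that was not called: GstD1, GstD4, GstD5, GstE1, GstE5, GstO3, Cyp4e3 and Cyp4p1. All 8 had a lower ratio with DDT, by 0.40 to 0.69 on the log2 scale. They were selected by their phenobarbital ratio, which also enters the difference, so this shared direction is not independent evidence.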

How the data were processed

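Log2 ratios of Cy5 to Cy3 for 1936 spots per array were used as deposited by the authors. The tool named, without a version, per the submitters' processing notes is limma. The background correction and normalization were not given in the sources used here. A ceiling value (16.61, the log2 of a ratio of 100000; 295 values on the 6 arrays) counted as missing, like 1431 empty values, so that 6.43% of named-spot values were missing. By the probe table, 656 spots had 1 gene symbol, 8 had more than 1 and 1272 had no symbol. Of 159 genes, 158 matched RefSeq and 155 had 4 spots. Before centring, array medians over named genes ran from -0.66 to 0.44.

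Ratios were turned to exposed over control by the labelled dye, averaged over the spots of a gene and centred on the median of named genes. limma 3.58.1 in R 4.3.3 fitted 9 pool-pair values from 34 arrays. There was 1 coefficient each for DDT adults, phenobarbital adults, phenobarbital larvae and caffeine larvae, and 1 for the 5 larval insecticides, whose spread gave the error. p-values were adjusted by Benjamini-Hochberg over all genes. P-values measure the spread of those pools, and no adult pool pair was repeated. Precision is limited by the single pool pair of each compound, and p-values of the array fit cover technical error only. The array fit added a dye term common to all arrays. Intervals are at 95%.

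Array numbers mark the dye orientation. Deviations of same-numbered DDT and phenobarbital arrays from their group means correlated at 0.24, 0.39 and 0.28, so a fit with the number as a block was also made. Alternatives were other centrings, scaling, spot summaries and coverage, array 4 kept, the dye effect subtracted, no size threshold, single arrays or pool pairs left out, and, chosen after seeing the data, spots with whole-number ratios left out.

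The members and lists were chosen with earlier results of these data known. Named genes are the 10 largest called changes per direction for the difference and for each compound, genes shared by both compounds, both earlier-work lists, all delta and epsilon GSTs, and the 5 called genes with differences nearest 0. Other genes were named after their values were seen. The fits were also run on simulated data with the same spread in adult and larval pools, array noise set below that measured and a constant dye effect. The simulation therefore does not test the assumptions made for the adult pools. Figures were drawn in matplotlib 3.10.9 from tables read by pandas 2.3.3 (numpy 2.4.6, Python 3.11.15).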

Additional observations from a re-analysis of the deposited data

Results flagged for a closer look

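Array 4 labelled DDT and array 4 labelled phenobarbital held identical values in 1936 of 1936 spots, and neither entered the comparison. Across genes the column correlated at r = 0.83 with DDT array 2 and at -0.07 with phenobarbital array 2, which share its dye orientation. Turned to exposed over control and centred, it read 0.95 for Cyp6a8, 0.64 for GstD2, -0.84 for Cyp6a21, 0.00 for Cyp6w1 and -1.22 for Cyp4d14, all below the 3 phenobarbital arrays of the same gene. For Cyp4d8, also called in both fits, it read 1.11, within the range of the phenobarbital arrays. These genes were picked for high phenobarbital ratios, so their values do not tell which label is right.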

How the results depend on the processing

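The array fit called 13 differences between the compounds, 10 genes with DDT and 29 with phenobarbital. The array fit with the array number as a replicate block called 11 differences. The median standard error was 0.36 in the array fit against 0.27. As deposited, DDT called 0 genes (51 had an unadjusted p under 0.05 as centred) and the compounds shared 0. Centred on all spots they shared 2. Centred on reference genes DDT called 9 and 1 was shared. Scaled arrays gave 25 differences, 0 genes with DDT and 0 shared. With array 4 kept, 12 differences and 32 genes with phenobarbital were called. With whole-number ratios left out, DDT called 7 and 2 were shared. The causes of these shifts were not tested.

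Leaving out single arrays or insecticide pool pairs gave 40 to 54 differences, 17 to 57 genes with DDT, 40 to 53 with phenobarbital and 2 to 17 shared. The highest of the DDT and shared counts, 57 and 17, came without DDT array 2, the only DDT array with the dyes swapped. Without it the difference of Cyp4d21 turned to 1.29, in a range of -0.57 to 1.29. Without phenobarbital array 2 those of Cyp28d2, Cyp313a1 and Cyp313a5 turned to -0.51, -0.76 and -0.23, in ranges up to 2.01, 1.85 and 1.38. Over 61 named genes, 1078 of 1383 differences under alternatives kept direction and side of the threshold. The 8 genes called in every setting were Cyp6a8, Cyp6a21, Cyp6w1, Cyp6d5, Cyp4ae1, Cyp4d14, Cyp4d8 and GstD2. Signal over background is unknown, so a weak spot cannot be told from a strong one.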
